A study of Mus musculus with 15 samples.

Results

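Chromosomes 8 and 14 of mouse embryonic stem cells were examined in 249 windows of 1 Mb, 127 on chromosome 8 and 122 on chromosome 14, out of 2411 such windows on the 19 autosomes. The 2 chromosomes were chosen by the ratio of hydroxymethylated to unmodified CG signal over the whole chromosome, which stood above that of the other 17 autosomes, so that shift is described here without a test. The question was whether it ran evenly along each chromosome or was confined to segments. Windows were counted from position 0 and needed at least 500 CGs. No window of either chromosome that held a CG fell under this minimum. The window with the fewest CGs, the last one of chromosome 8, held 1778.

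The cells were E14TG2a, an established male mouse embryonic stem cell line, grown on gelatin with LIF and fetal bovine serum. In hmTOP-seq a glucosyltransferase (BGT) puts an azide sugar on 5-hydroxymethylcytosine (5hmC), an oligonucleotide is attached to it, and reads are primed from that tether, so that each read starts next to a hydroxymethylated CG. It was run on 500, 50 and 5 ng of DNA, with 2 technical replicates at each input, and 2 control libraries at each input were made without the BGT step. uTOP-seq, which reads unmodified CGs in the same tethered way, was run on 300 ng of DNA in 3 replicates. The hmTOP-seq replicates were technical, so the spread between them, and each p-value between inputs, measures library preparation and sequencing only. The sources used here do not say whether the uTOP-seq replicates were technical, nor whether both assays drew on the same DNA preparation. A p-value between the assays may therefore also reflect a difference in DNA or culture. The 9 labelled libraries held between 14884939 and 32502791 reads and the controls between 3409 and 10072.

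5hmC is made from 5-methylcytosine by the TET dioxygenases, and in embryonic stem cells it is found mainly in gene bodies and at regulatory elements of active or poised genes, while CG-dense promoters are largely unmodified. A read count at a CG rises with the share of DNA copies that carry the mark and also with the number of copies of that stretch of chromosome in the culture. Cultured mouse embryonic stem cells are known to gain extra copies of chromosome 8, and segmental losses and gains occur as well. Chromosome X, present as a single copy in a male line, was therefore measured alongside. Copy number itself was not measured in these data.

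To show what the 2 readouts count in the most extreme windows, the sequence is given around the CG with the most hmTOP-seq reads (500 ng) and the CG with the most uTOP-seq reads in the window of highest and of lowest ratio on each chromosome. Each is 26 bases of the plus strand of GRCm38 (mm10), 5′ to 3′, with the CG in capitals.
Chromosome 8 highest, hmTOP-seq, chr8:108691777-108691802: cgactctggcccCGcatcctgccctg
Chromosome 8 highest, uTOP-seq, chr8:108714128-108714153: tgatcctgacagCGggtggttccagg
Chromosome 8 lowest, hmTOP-seq, chr8:50120502-50120527: gattctggtggtCGggtgtggatgcc
Chromosome 8 lowest, uTOP-seq, chr8:50916694-50916719: ggagcaggagacCGggctcattcacc
Chromosome 14 highest, hmTOP-seq, chr14:3287788-3287813: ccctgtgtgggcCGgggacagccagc
Chromosome 14 highest, uTOP-seq, chr14:3904630-3904655: acacagagaaacCGtctcaaaaaaaa
Chromosome 14 lowest, hmTOP-seq, chr14:39710580-39710605: cctctgcctcccCGttgctgggatta
Chromosome 14 lowest, uTOP-seq, chr14:39471810-39471835: acagcatagaccCGcacctttggccc
The first pair lies in introns of Zfhx3, a large homeodomain and zinc finger transcription factor. Its hmTOP-seq CG had 67 and 75 reads in the 500 ng libraries and 0, 0 and 2 reads in the uTOP-seq libraries. Its uTOP-seq CG had 1 and 7 hmTOP-seq reads against 24, 15 and 17 uTOP-seq reads. Each CG was picked as the highest in its own assay, so an imbalance was fixed by the choice. The pair of the lowest window of chromosome 8 was intergenic, with 27 and 21 hmTOP-seq reads at the first CG against 5, 8 and 6 uTOP-seq reads. On chromosome 14 the uTOP-seq CG of the lowest window lay in an intron of Nrg3, with 2 and 7 hmTOP-seq reads against 15, 3 and 13 uTOP-seq reads. The hmTOP-seq CG lay in an intergenic repeat, with 19 and 11 against 4, 5 and 4. The CGs of the highest window of chromosome 14 lay in repeats and rested on very few reads, 7 and 12 for hmTOP-seq and 5, 1 and 2 for uTOP-seq, and in that window 32% of all 25 uTOP-seq reads came from the 1 CG.

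In reads per CG, chromosome 8 had a high hmTOP-seq level and a uTOP-seq level close to that of the median autosome. Reads per CG in each library were divided by the median window of the other 17 autosomes, which puts an ordinary window at 1. The median window of chromosome 8 then stood at 1.40 and 1.41 in the 500 ng libraries. The 50 ng libraries gave 1.36 and 1.39, the 5 ng libraries 1.37 and 1.35, and the uTOP-seq libraries 0.972, 0.983 and 0.984. All 6 hmTOP-seq libraries lay above all 3 uTOP-seq libraries, an order that the choice of the chromosome by this ratio made likely. The medians of the other 17 autosomes ran from 0.688 on chromosome 3 to 1.71 on chromosome 11 in hmTOP-seq at 500 ng, and from 0.823 to 1.42 on the same chromosomes in uTOP-seq, so each level of chromosome 8 alone lay inside its range. From the highest to the lowest input, the median log2 ratio of hmTOP-seq to uTOP-seq was 0.35, 0.31 and 0.26. Among the other 17 autosomes this median ran from -0.17 on chromosome 16 to 0.24 on chromosome 11.

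On chromosome 14 the uTOP-seq level lay below that of every other autosome, and the hmTOP-seq level, though under 1, lay inside their range. Its median window stood at 0.797 and 0.793 in the 500 ng libraries. The 50 ng libraries gave 0.770 and 0.824 and the 5 ng libraries 0.775 and 0.835. The uTOP-seq libraries gave 0.618, 0.619 and 0.607. The median log2 ratio was 0.30, 0.24 and 0.25 at 500, 50 and 5 ng.

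To allow for the number of CGs in a window, its log2 value was also set against the median of the 100 windows of the other 17 autosomes closest to it in rank of CG number, which puts an ordinary window of that CG number at 0. On this scale the ratio of chromosome 8 was 0.25 at 500 ng and 0.26 at both lower inputs, and that of chromosome 14 was 0.40, 0.41 and 0.43. The other autosomes lay between -0.11 on chromosome 19 and 0.07 on chromosome 11. The adjusted hmTOP-seq level of chromosome 14 was -0.014 ± 0.008 (SD, n = 6), and its adjusted uTOP-seq level was -0.54 ± 0.15 (SD, n = 3).

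Along chromosome 8 successive stretches had a similar shift once the CG number was allowed for, and differed before. Of its 127 windows 108 had an adjusted ratio above 0, against 50.1% of the windows of the other autosomes. The medians of 4 successive stretches of 31 or 32 windows, in order from the centromere, were 0.31, 0.25, 0.27 and 0.24, a spread of 0.07. Without the adjustment they were 0.38, -0.015, 0.35 and 0.55, so the second stretch stood near 0 on that scale. The smallest adjusted spread among all other autosomes was 0.06 on chromosome 12, and the largest, chromosome 14 aside, was 0.27 on chromosome 10. A running median over 15 windows ranged over 0.33, inside the range of 0.19 to 0.61 found on the other 17 autosomes. Relative to the other autosomes, the adjusted shift was 0.23 at the 10th and 25th percentiles, 0.25 at the median, 0.28 at the 75th and 0.27 at the 90th. The unadjusted shift at these percentiles was 0.17, 0.30, 0.36, 0.32 and 0.31, smallest at the low end. The adjusted interquartile range of 0.35 also lay inside that of the other autosomes, 0.23 to 0.39. Single windows ran from -0.57 to 1.70. The contiguous run of windows that differed most from the rest was 8:9000001-117000000, 108 windows. Its median minus that of the rest, at the chromosome's ends, was -0.25, in size close to the shift itself. The same search on the other 17 autosomes gave -0.30 to 0.46.

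**Figure D1:**
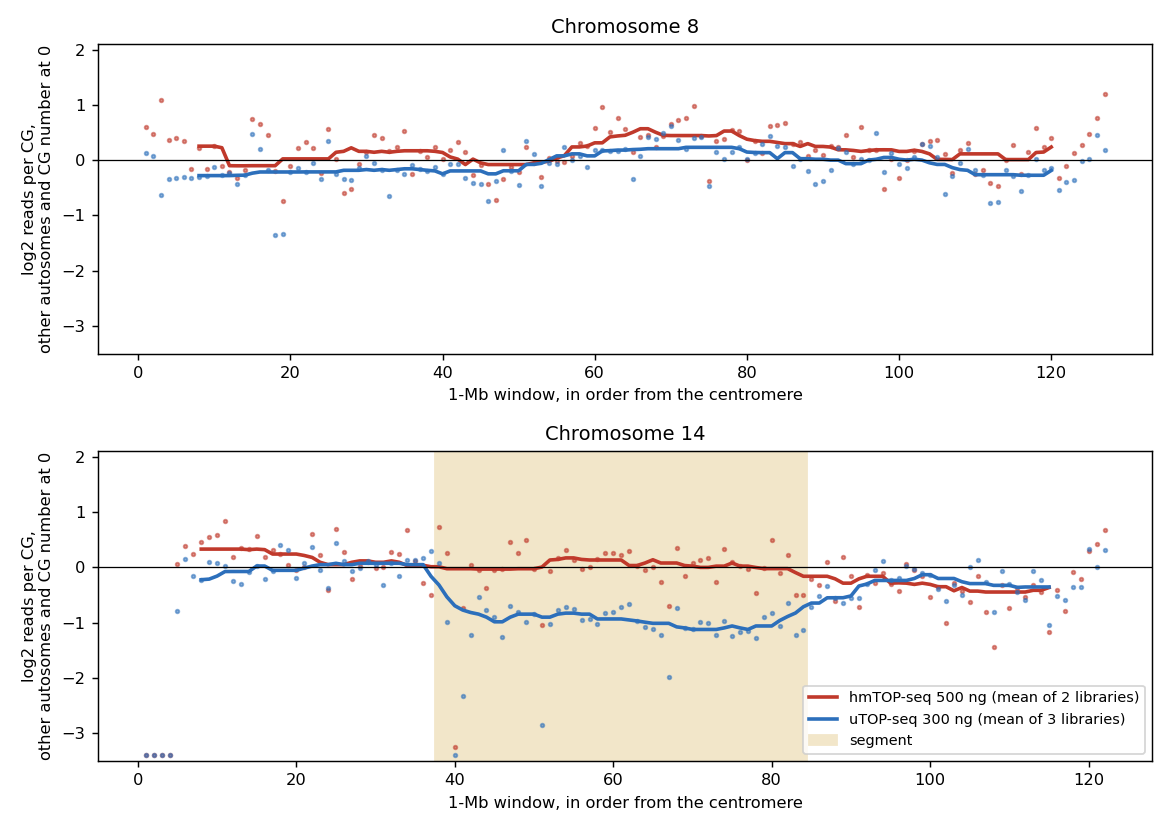
Level of each 1-Mb window along chromosomes 8 and 14, in order from the centromere (x axis), as log2 reads per CG with the other autosomes and the CG number at 0 (y axis). Points are windows, lines the running median over 15 windows, red hmTOP-seq 500 ng (mean of 2 libraries) and blue uTOP-seq 300 ng (mean of 3 libraries), and points beyond the axis are drawn at its lower edge. The red line stays a little above the blue one along all of chromosome 8, while on chromosome 14 the blue line drops to about -1 inside the shaded segment of 47 windows and the red line does not.

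On chromosome 14 the shift was uneven and lay mainly in one segment. The contiguous run of windows whose adjusted ratio differed most from the rest of the chromosome was 14:40000001-87000000, 47 windows with 397994 CGs. Inside it the median adjusted ratio was 1.01, with quartiles of 0.89 and 1.204, and in the other 75 windows of the chromosome it was 0.07. All 47 windows lay above 0 and 45 lay above 0.5, where 3.93% of the windows of the other autosomes did. The 2 below that mark, at 45 and 46 Mb, stood at 0.42 and 0.40. The segment was found in these values, so these counts describe it and do not test it. The same search on each of the other 17 autosomes gave a difference between the run and the rest of -0.30 to 0.46, against 0.94 on chromosome 14. The running median of chromosome 14 ranged over 1.46, and its 4 successive stretches stood at 0.30, 0.91, 0.93 and -0.14, or without the adjustment at 0.20, 0.91, 0.48 and -0.41.

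Against other autosomal windows of like CG number, the segment had a deficit of uTOP-seq reads and an ordinary hmTOP-seq level. The adjusted uTOP-seq level of the segment was -1.03, -0.99 and -1.005 on the log2 scale in the 3 libraries. The adjusted hmTOP-seq level was 0.02 in each library of 500 ng. It was 0.06 and 0.04 at the middle input, and 0.05 and 0.03 at the lowest. No hmTOP-seq library showed the deficit, and the libraries of the 2 assays did not overlap. The segment was drawn from the ratio of the 500 ng to the uTOP-seq libraries, so this order and the window counts below only describe it. In the rest of the chromosome the adjusted level was -0.14 ± 0.06 (SD, n = 3) for uTOP-seq and -0.10 ± 0.03 (SD, n = 6) for hmTOP-seq. Without the adjustment the contrast within the chromosome looked different. The median hmTOP-seq level at 500 ng was then 1.14 in the segment and 0.555 in the rest, and the uTOP-seq level 0.553 and 0.681, so that the larger step lay in hmTOP-seq. The windows of the rest held fewer CGs, 6604 in the median against 8290. Of the 47 windows of the segment 46 had an adjusted uTOP-seq level below -0.5, compared with 6.8% of windows on the other autosomes, and the exception was the first window, 14:40000001-41000000, at 0.07. The hmTOP-seq level was above 0 in 25 of the 47.

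The 3 stretches of chromosome 14 differed in order. The 37 windows on the centromere side of the segment had a median adjusted ratio of 0.25, 0.20 and 0.18 from the highest to the lowest input, and the 38 windows beyond it had -0.02, -0.02 and 0.02. On the centromere side the adjusted level was 0.18 in hmTOP-seq at 500 ng and -0.015 in uTOP-seq, and on the far side it was -0.32 and -0.31. With 100-kb windows the run began at 14:41100001 and ended at 14:87100000. In the 20 windows of 100 kb before its near edge the adjusted uTOP-seq level was 0.02 and the hmTOP-seq level 0.03. In the first 20 windows inside, both assays had few reads, at -4.96 in uTOP-seq and -2.90 in hmTOP-seq, so the low level there was not particular to uTOP-seq. Over the whole run the levels were -1.05 and 0.04. At the far edge uTOP-seq went from -1.06 in the last 20 windows inside to -0.64 in the first 20 outside, and hmTOP-seq from -0.37 to -0.55. When the run was searched in the first 500 ng and the first uTOP-seq library alone, it came out as 14:41000001-93000000, and in the other libraries the level inside minus that of the rest was -0.87 and -0.89 for uTOP-seq and 0.02 to 0.14 for hmTOP-seq.

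**Figure D2:**
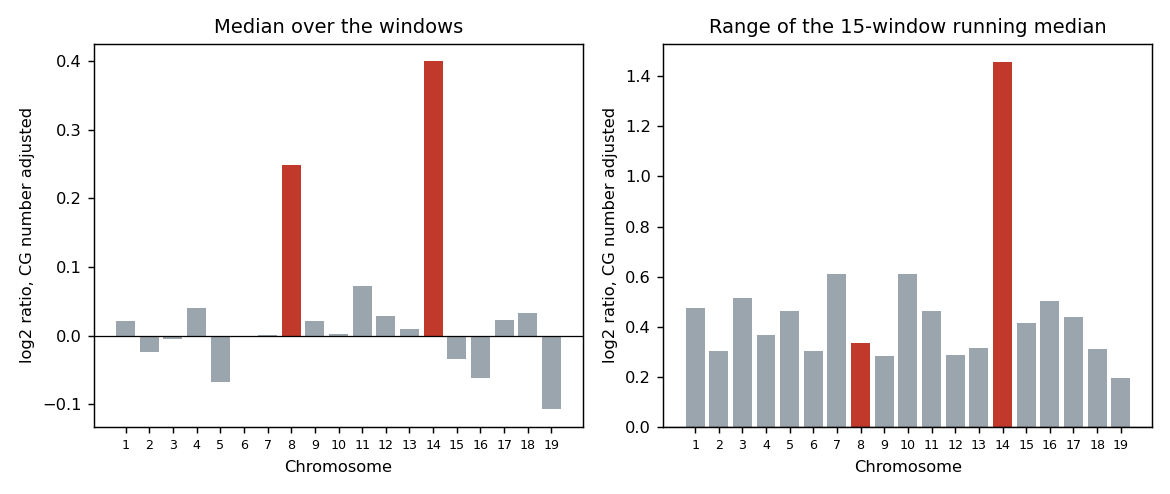
The 19 autosomes (x axis) by the median of the log2 ratio adjusted to the CG number over their windows (left, y axis) and by the range of its running median over 15 windows along the chromosome (right, y axis), at 500 ng. Chromosomes 8 and 14 are red. Both stand high on the left, at 0.25 and 0.40, while on the right chromosome 14 alone stands out at 1.46 and chromosome 8, at 0.33, lies among the others.

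On the adjusted scale the shift of chromosome 8 as a whole had a part on each side, the larger one in hmTOP-seq. Its adjusted hmTOP-seq level was 0.22 in each library of 500 ng and 0.20 in each of 50 ng, while the 5 ng libraries gave 0.19 and 0.20. Its adjusted uTOP-seq level was -0.11, -0.11 and -0.12. Over its 4 successive stretches the level was 0.22, 0.11, 0.37 and 0.15 in hmTOP-seq at 500 ng. In uTOP-seq it was -0.24, -0.11, 0.14 and -0.15. The larger part thus did not lie in hmTOP-seq in every stretch, and in the third uTOP-seq stood above 0. Among the other 17 autosomes the adjusted level reached 0.25 in hmTOP-seq at 500 ng, on chromosome 11, and was lowest in uTOP-seq at -0.10, on chromosome 13. Chromosome 8, at 0.22 and -0.12 over its pooled libraries, thus lay inside the first range and just below the second. In total reads per CG, chromosome 8 had 1.24 to 1.25 times the value of the other autosomes in all 6 hmTOP-seq libraries and 0.994, 0.9998 and 1.002 times in the uTOP-seq libraries. The segment of chromosome 14 had 0.947 to 0.972 times the value in hmTOP-seq and 0.502, 0.477 and 0.469 times in uTOP-seq. Chromosome X was low in both assays, at -0.78 ± 0.02 (SD, n = 6) in hmTOP-seq and -0.85 ± 0.04 (SD, n = 3) in uTOP-seq on the adjusted log2 scale. The adjusted uTOP-seq level of the segment lay below that of X in each of the 3 libraries. In reads per CG the order was the reverse, with X at 0.316, 0.330 and 0.316 times the other autosomes. The hmTOP-seq level of the segment lay above that of X in each of the 6 libraries on both scales.

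The control libraries, which share the hmTOP-seq procedure but not the labelling, had few reads. At 500 ng chromosome 8 had 1364 control reads, 1.29 times the other autosomes per CG (95% exact binomial interval 1.22 to 1.36, counting error only). The segment had 369, or 0.995 times (0.895 to 1.10). Both intervals held the values of the labelled libraries of that input. This was not so for chromosome 8 at the lower inputs, nor for the segment at 5 ng. At 50 ng the values were 1.12 (1.01 to 1.23) for chromosome 8 and 1.02 (0.852 to 1.21) for the segment. At 5 ng they were 1.01 (0.920 to 1.11) and 2.03 (1.81 to 2.26), but the 328 control reads of the segment at this input came from 24 CGs, 62 of them from 1 CG. Counted as CGs with any read, chromosome 8 stood at 1.28, 1.11 and 1.08 times the other autosomes at 500, 50 and 5 ng and the segment at 0.996, 0.881 and 1.31. The part of DNA copies in the shifts of either chromosome was not tested.

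**Figure D3:**
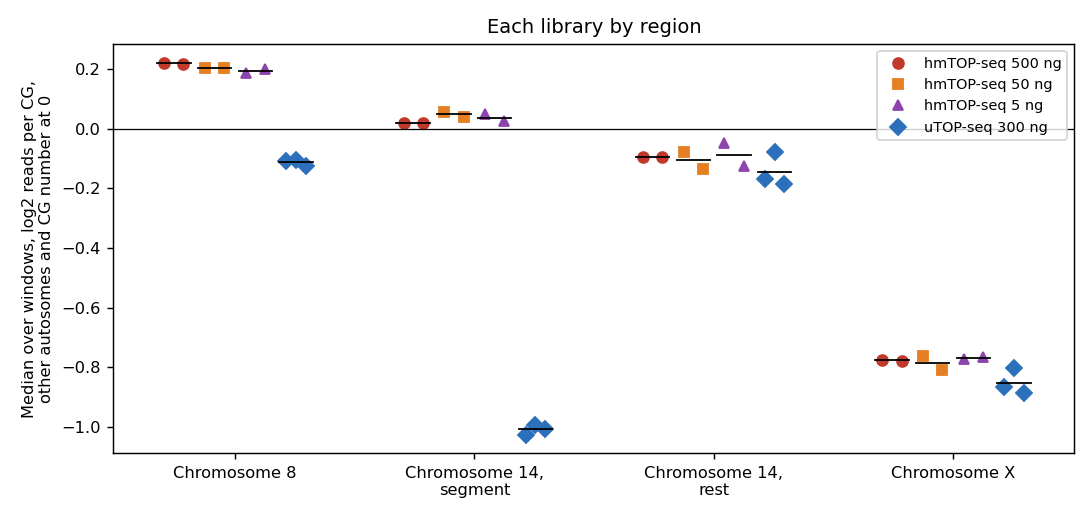
Median over windows of each library's log2 reads per CG, with the other autosomes and the CG number at 0 (y axis), for chromosome 8, the segment and the rest of chromosome 14 and chromosome X (x axis). Each point is 1 library, short lines are group means. The 3 uTOP-seq libraries drop to about -1 in the segment, where the 6 hmTOP-seq libraries stay near 0, and the order on chromosome 8 has hmTOP-seq at about 0.2 above uTOP-seq at about -0.1.

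The parts of each chromosome on the far and on the near side of its midpoint were compared as well, in reads per CG without the adjustment, which removes any shift of a whole chromosome but not that of the CG number. On chromosome 8 the far side had more reads per CG, by 0.78 ± 0.05 on the log2 scale in hmTOP-seq (SD, n = 6) and 0.44 ± 0.04 in uTOP-seq (SD, n = 3). The difference of 0.34 passed an exact two-sided permutation test (p = 0.0238, the smallest that 6 against 3 libraries allow, and 0.0283 adjusted by Benjamini-Hochberg over 19 autosomes). The far side of chromosome 14 had fewer reads, by -0.89 ± 0.07 in hmTOP-seq and -0.27 ± 0.11 in uTOP-seq, a difference of -0.62 with the same p-values from the exact permutation test. Such differences were common: 84.2% of the autosomes passed, and chromosome 8 lay inside the range of the others, from -0.26 on chromosome 16 to 0.59 on chromosome 15. Chromosome 14 lay below that range.

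Single windows were compared with their own chromosome in an edgeR quasi-likelihood fit over 2405 windows of all autosomes, 500 ng hmTOP-seq against uTOP-seq, with the chromosome's total in each library as the offset. On chromosome 8 121 of 127 windows passed an adjusted p of 0.05 and on chromosome 14 108 of 121, but 92.5% of all windows did (29.7% higher and 62.8% lower), so these shares were near the background. With a change of over 1.2-fold required, 64 and 87 passed, against 53% of all windows (10.4% higher and 42.6% lower). In a setting chosen after the data were seen, the offset held the value expected from the CG number. It also held the chromosome's median level in place of its total, so both changes enter the counts. With this offset 21.7% of all windows passed that fold limit (8.86% higher and 12.9% lower). Chromosome 8 then had 31 of 127 (24.4%), close to the background, and chromosome 14 had 79 of 121 (65.3%), above it. With the same offset and no fold limit, 78.2% of all windows passed (33.8% higher and 44.4% lower). Of these, 40 of the 47 windows of the segment were higher than their chromosome and 0 were lower, while in the rest of chromosome 14 4 were higher and 61 lower of 74. The segment was drawn from the ratio in these same libraries. Each chromosome was centred on its own level, so a higher segment placed the rest lower. The counts of chromosome 14 thus describe the segment and are no test of it.

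The levels differed little between inputs in the median, and single windows differed in part. Between 50 and 500 ng, 16.1% of all windows passed the edgeR test, and of the windows of chromosome 8 24 passed, 4 higher at 50 ng (4.82% of all windows) and 20 lower (11.3%). On chromosome 14 11 of 122 passed, 4 higher and 7 lower, and 5 of the lower ones lay in the segment. The median log2 difference was 0.01 on chromosome 8 and 0.03 on chromosome 14. Without the first 500 ng library no window of either chromosome passed. Between 5 and 500 ng edgeR called 0 windows (0% of all). At an unadjusted p under 0.05 it had 38 on chromosome 8 and 23 on chromosome 14, against 609 of 2407 over all autosomes. DESeq2 called 14 and 7 (9.85% of all windows). With the replicate number as a block edgeR called 13 and 3 (7.1% of all).

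The shift was present in every class of CG examined, in the same reads by which the chromosomes and the segment were chosen. CGs were sorted by annotation (exon, intron, within 2 kb upstream of a gene, intergenic), by soft-masked repeats and by the number of CGs within 180 bp, and each class was set against the same class on the other autosomes. On chromosome 8 the hmTOP-seq level over the 10 classes lay between 1.17 and 1.33 and the uTOP-seq level between 0.953 and 1.04. The log2 ratio was lowest upstream of genes, at 0.23, and highest at CGs with 10 or more CGs within 180 bp, at 0.40. Introns stood at 0.38 and exons at 0.32. In the segment of chromosome 14 the uTOP-seq level lay between 0.469 and 0.514 in every class, and the log2 ratio between 0.84 at the CG-densest sites and 1.08 in repeats. In the rest of the chromosome the ratio lay between -0.13 and 0.07.

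**Figure D4:**
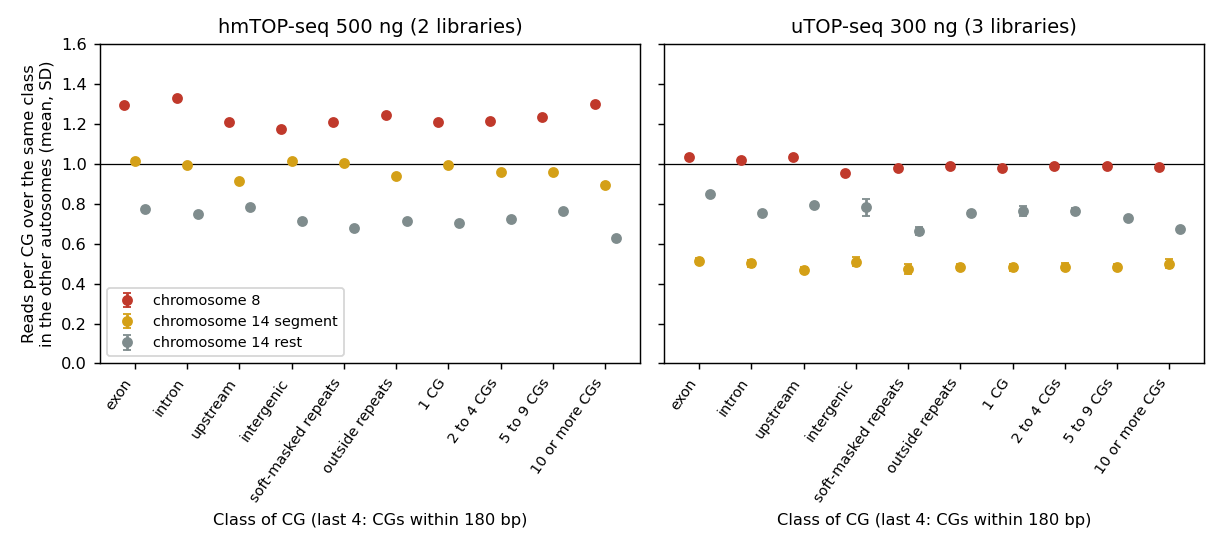
Reads per CG of chromosome 8 and of the segment and the rest of chromosome 14 over the same class of CG in the other autosomes (y axis), for 10 classes (x axis), in hmTOP-seq 500 ng (left) and uTOP-seq 300 ng (right). Points are means and bars the SD over 2 and 3 libraries. In each class chromosome 8 lies above 1 in hmTOP-seq and near 1 in uTOP-seq, and the segment lies near 1 in hmTOP-seq and near 0.5 in uTOP-seq.

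The deficit in the segment showed in how many CGs were read at all. uTOP-seq read 22.8% ± 2.3 of the CGs of the segment and 37.1% ± 2.5 of those of the other autosomes (SD, n = 3), and a CG that was read had 2.47 ± 0.27 against 3.15 ± 0.34 reads. hmTOP-seq at 500 ng read 33.5% ± 1.1 of the segment's CGs and 34.0% ± 1.1 elsewhere (SD, n = 2). On chromosome 8 it read 38.3% ± 1.2 of CGs, with 5.10 ± 0.22 reads each against 4.58 ± 0.20, and uTOP-seq read 37.1% ± 2.4. At 5 ng the shares were smaller, 7.13% on chromosome 8, 5.70% in the segment and 5.85% elsewhere.

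The shift also held across CG numbers, in the same windows from which it was drawn. In 5 classes of windows with few to many CGs, the log2 ratio of chromosome 8 exceeded that of the other autosomes by 0.18, 0.23, 0.38, 0.35 and 0.24. For the segment of chromosome 14 the excess was 1.09, 0.95, 1.02, 1.03 and 1.02, on 6 to 15 windows each. The segment's excess differed little between CG-poor and CG-rich windows.

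The windows with the highest unadjusted ratio on chromosome 8 all held protein-coding genes, though how common such genes are among all windows was not counted. With the CG number allowed for, their ratios were 0.72, 0.80 and 0.56 in the order below. The first, 8:108000001-109000000 with 12855 CGs and no other protein-coding gene than Zfhx3, had a hmTOP-seq level of 2.57 and 2.55 at 500 ng and a uTOP-seq level of 1.11, 1.13 and 1.201, a log2 ratio of 1.16. The second, 8:35000001-36000000, held Mfhas1, a leucine-rich repeat GTPase gene, and Gm19410, and had a ratio of 1.11. The third, 8:120000001-121000000, had the highest hmTOP-seq level of the 6 named windows of the chromosome, 4.43 and 4.29, with a ratio of 1.06. It lay over Gse1, a coiled-coil protein gene, and Gm20388, a gene model that overlaps Gse1 so that the reads of one belong to both. At gene level, scaled to the median gene of the other autosomes, the log2 ratio was 1.23 for Zfhx3, 1.04 for Mfhas1, 0.38 for Gm19410, 1.01 for Gm20388 and 1.32 for Gse1.

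Of the 3 lowest windows of chromosome 8, 2 were gene deserts. 8:50000001-51000000 and 8:100000001-101000000 held no protein-coding gene and had 5284 and 5207 CGs. The first had a hmTOP-seq level of 0.275 and 0.276 and a uTOP-seq level of 0.654, 0.698 and 0.642, a log2 ratio of -1.27. The second stood at -1.16. The third, 8:99000001-100000000 at -1.07, held Cdh8, a type II classical cadherin. After the adjustment to the CG number the 3 stood at -0.57, -0.44 and -0.29. The first of them held 3212 hmTOP-seq reads at 500 ng.

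On chromosome 14 the highest window, 14:3000001-4000000, rested on 209 hmTOP-seq and 25 uTOP-seq reads over 6626 CGs and its ratio of 3.48 is read no further. It is the first of 4 windows at the centromere end with under 1000 uTOP-seq reads each, and it holds families of near-identical gene models, of which Gm3005 had 0 reads in the 500 ng and uTOP-seq libraries (a count of 0 allows up to 3) and Gm3002 had 9 and 10. Without these 4 windows the median adjusted ratio on the centromere side was 0.25, as with them. The next highest windows lay in the segment. 14:76000001-77000000 had a hmTOP-seq level of 2.43 and 2.46 and a uTOP-seq level of 0.783, 0.780 and 0.792, a log2 ratio of 1.64. It held Tsc22d1, a TGF-beta-stimulated leucine zipper gene, with a gene-level ratio of 1.74, and Serp2, with 1.24. 14:69000001-70000000 also had a ratio of 1.64 and held Pebp4, with a gene-level ratio of 2.20, and Gm16867, which had 0 reads at 1647 CGs.

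The lowest windows of chromosome 14 lay outside the segment. 14:39000001-40000000, directly before it, had a hmTOP-seq level of 0.207 and 0.217 and a uTOP-seq level of 0.640, 0.629 and 0.657, a log2 ratio of -1.60. It held part of Nrg3, a neuregulin gene, which had a gene-level ratio of -1.72. The uTOP-seq level of that window was 0.29 above the value expected from its CG number. The other windows, 14:107000001-108000000 with no protein-coding gene and 14:110000001-111000000 with Slitrk6, a neuronal transmembrane protein gene, stood at -1.45 and -1.37.

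In genes, which hold part of the same reads, the pattern was the same as in windows. This restates the choice of the regions and is no second test. A gene was measured where it held at least 20 CGs and at least 10 reads in each of the 500 ng and the uTOP-seq groups. On chromosome 8 970 of 1040 protein-coding genes were measured, with a median log2 ratio of 0.44 and 67.6% above 0, against 0.07 and 53.1% for 16958 genes of the other autosomes. In the segment 415 of 514 genes were measured, with a median ratio of 1.10 and 87.5% above 0, and 55.4% had a uTOP-seq level under 0.5 of the median gene, against 10.4% elsewhere. In the rest of chromosome 14, where 277 of 388 were measured, the median ratio was 0.15. The spread between genes was wider than these shifts: the interquartile range ran from -0.59 to 0.57 on the other autosomes, from -0.26 to 0.86 on chromosome 8 and from 0.45 to 1.604 in the segment.

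On chromosome 8 all 12 developmental regulators were measured, with a median log2 ratio of 0.07. Klf2, a pluripotency-associated zinc finger factor, had a hmTOP-seq level of 0.148 and 0.179 against a uTOP-seq level of 2.07, 1.95 and 1.75, a ratio of -3.55. Junb, an AP-1 subunit, was similar at -3.51. Irx6, an Iroquois homeobox gene, stood at 0.80 with 2.83 and 2.92 against 1.65, 1.67 and 1.62, and Foxf1, a forkhead gene of visceral mesoderm, at 0.76. None of the 12 had a uTOP-seq level under 1, and 4 had a hmTOP-seq level under 1. The median of all measured genes of chromosome 8 was 1.08 in uTOP-seq and 1.38 in hmTOP-seq.

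The other chromosome 8 lists covered adhesion, metal binding and clustered families. The 8 cadherins had a median ratio of 0.35, with Cdh3 (P-cadherin) at 1.08 and Cdh15 (M-cadherin) at 0.96 at one end, and Cdh8 at -1.18 and Cdh11 at -0.93 at the other. Of the 4 metallothioneins, small metal-binding proteins, 3 were measured. Mt2 had 13 hmTOP-seq and 694 uTOP-seq reads and a ratio of -5.30, Mt1 stood at -0.36 and Mt3 at 0.11, although Mt1 and Mt2 are neighbours. Mt4 had 19 CGs, 1 under the minimum. The 19 carboxylesterases, hydrolases of esters and drugs in liver, had a median of -0.71, with 16 uTOP-seq and 18 hmTOP-seq levels under 1. The median gene of chromosome 8 lay above 1 in both. Ces4a at 1.004 and Ces1a at 0.37 were their highest, and Ces2e at -2.12 and Ces2a at -1.68 their lowest. Of 46 defensin genes, which encode antimicrobial peptides, only 9 were measured, with a median of -1.04 and extremes at Defb35 (2.33) and Defb39 (1.92) and at Defb37 (-2.51) and Defb40 (-1.61). The alpha-defensins are near-identical copies, none passed the minimum, and reads of such copies cannot be placed with certainty.

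On chromosome 14 the developmental regulators differed between the segment and the rest, which the choice of the segment by this ratio made likely. Of 13 developmental regulators 7 lay in the segment, with a median ratio of 0.61, and 6 in the rest, with -1.35. Both medians lay below those of all measured genes, 1.10 in the segment and 0.15 in the rest. Of the 7 in the segment 4 had a ratio above 0, against 87.5% of all its measured genes, and the lowest stood at -0.45. Of the 6 outside it 1 was above 0. Gata4, a cardiac and endodermal zinc finger factor in the segment, had a hmTOP-seq level of 2.13 and 2.05 against a uTOP-seq level of 0.632, 0.647 and 0.588, a ratio of 1.75. Ebf2, of the early B-cell factor family and also in the segment, had 1.06 and 1.11 against 0.353, 0.368 and 0.361, a ratio of 1.59. Sox21 and Zic2, neural regulators outside it, had ratios of -2.46 and -1.71, and Sox21 had a hmTOP-seq level of 0.304 and 0.253 against a uTOP-seq level of 1.42, 1.498 and 1.70. Of the 7 regulators in the segment 5 had a uTOP-seq level under 1, of the 6 outside it 2. The median of all measured genes in uTOP-seq was 0.469 in the segment and 0.852 in the rest.

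The clustered families of the segment were low in uTOP-seq and mostly low in hmTOP-seq as well. Under 1 in hmTOP-seq were 7 of the 10 ribonucleases, 8 of the 11 proteases and 22 of the 25 olfactory receptors measured there. The median of all measured genes of the segment was 0.469 in uTOP-seq and 0.963 in hmTOP-seq. Of 21 genes whose symbols start as ribonucleases, the ribonuclease A family of secreted enzymes together with the unrelated ribonuclease H2 subunit Rnaseh2b, 10 were measured, all with a uTOP-seq level under 1 and with a median ratio of 1.27. Ang4, an angiogenin, stood at 3.37 with 242 hmTOP-seq and 31 uTOP-seq reads and Rnase13 at 3.28 with 154 and 22, while Ear1 stood at -0.32 on 35 and 62 reads and Rnase9 at 0.51. Of 14 granzymes and mast cell proteases, serine proteases of lymphocyte and mast cell granules, 11 were measured and all 11 had a ratio above 0 at 500 ng, with a median of 1.13, from Gzmd at 1.70 and Gzmf at 1.56 to Mcpt8 at 0.11 and Mcpt4 at 0.34. Mcpt8 stood at -0.55 at 50 ng and Mcpt4 at -0.17 at 5 ng. Of 40 olfactory receptor genes, 27 were measured, 25 of them in the segment with a median of 0.23. Olfr750 at 2.29 and Olfr1512 at 2.18 were the highest and Olfr720, outside the segment, at -2.17 and Olfr728 at -1.70 the lowest, though Olfr728, with 11 hmTOP-seq reads at 500 ng, stood at 1.75 at 5 ng. Most of these genes are small and the counts few, so single values carry wide counting error.

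Neuronal adhesion genes gave both directions. Of the 4 protocadherins, Pcdh8 and Pcdh17 lay in the segment, at 0.05 (-0.38 at 50 ng) and -0.67, and Pcdh20 and Pcdh9 outside it, at 1.32 and -0.67. Pcdh20 lies 1464743 bases beyond the edge of the segment. In Pcdh17 and Pcdh20 the second uTOP-seq library stood apart, at 1.11 in both, against 0.541 and 0.465 and against 0.527 and 0.411 in the other libraries. The 3 Slitrk genes lay outside it, with Slitrk1 at 0.92, Slitrk6 at -0.74 (0.069 at 5 ng) and Slitrk5 at -0.86.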

How the data were processed

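The authors deposited, per the file headers, counts of reads for each CG of mm10 (the build named in the submitters' processing notes), 1 column per library, for hmTOP-seq with its controls and for uTOP-seq. Per their methods, hmTOP-seq reads were assigned to CGs by their start, kept above a mapping-quality minimum, and reduced to 1 where start and length were identical, so regions of near-identical copies can lose reads and very high counts can be compressed. Without molecular identifiers, reads are not independent molecules, and intervals cover counting error only. Deposited positions count from 0 and all fell on a CG of GRCm38. Counts were summed per 1-Mb window and divided by the window's CGs and by the median window of the other 17 autosomes. Genes are those of GENCODE M21, and sequences are from the RefSeq GRCm38 assembly. The segment is the run of at least 10 windows with the largest between-run sum of squares, with values limited to 1.5 on the log2 scale.

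Window counts were tested with edgeR 4.0.16 (quasi-likelihood, TMM, Benjamini-Hochberg, adjusted p under 0.05, 10 or more reads in every library) and DESeq2 1.42.0 in R 4.3.3. The comparison of the far and near sides used scipy 1.17.1. Tested on simulated data, the fits recovered 100% of windows lowered 2-fold and 98% to 100% of those raised 1.5-fold. Between the real 5 and 500 ng libraries, 14:112000001-113000000 was raised past 1.5-fold at 5 ng, at 0.64 on the log2 scale. The edgeR test did not call it (adjusted p = 0.106). The 0 windows called between these inputs thus do not show that changes of that size were absent. The segment search found all 40 windows lowered 2-fold on 1 chromosome. In that simulation counts varied only by counting error around a mean set by the CG number. It lacked the spread between windows of the real data, so it does not show how sure the real edges are. The windows, lists and tests were chosen with earlier results of these data known. Named windows are the 3 highest and 3 lowest ratios of each chromosome, with the 2 protein-coding genes holding most CGs. Named list members are the 2 highest and 2 lowest ratios of each list. Mt4 and Rnaseh2b were named beside them after their values were seen.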

Additional observations from a re-analysis of the deposited data

Results flagged for a closer look

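The far and near sides of a chromosome differed between hmTOP-seq and uTOP-seq on both chromosomes, by 0.34 on chromosome 8 and by -0.62 on chromosome 14 (log2, far over near side, 6 against 3 libraries), each past the exact permutation test at its smallest p of 0.0238. So did most autosomes: 16 of 19 (84.2%) passed after adjustment. Chromosome 8 lay inside the range of the other autosomes and chromosome 14 below it. On chromosome 14 the level of the segment minus that of the rest was above 0 in each of the 6 hmTOP-seq libraries, from 0.10 to 0.18, and below 0 in each of the 3 uTOP-seq libraries, from -0.91 to -0.82, so the assays differed by 0.99. This difference was not tested, since the segment was drawn from the same values. Among 6 measures over the 6 hmTOP-seq libraries, 0 libraries stood apart from the others by Dixon's criterion.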

How the results depend on the processing

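The median log2 ratio of chromosome 8 (0.35) and 14 (0.30) stayed above 0 in all alternatives over whole chromosomes: 0.33 and 0.34 in 500-kb windows, 0.31 and 0.24 from 50 ng libraries, 0.26 and 0.25 from 5 ng libraries, 0.14 and 0.10 when scaled to total reads over total CGs (which moves the other autosomes to -0.21, and leaves both chromosomes 0.36 and 0.31 above them as before), 0.25 and 0.40 after adjustment to the CG number, 0.28 for chromosome 14 outside repeats, and 0.32 to 0.36 and 0.27 to 0.32 without single replicates. In alternatives chosen after the data were seen, chromosome 14 without the segment turned to -0.043, and the segment minus the rest was 0.94, 0.89 from 50 ng, 0.88 from 5 ng, 1.12 unadjusted and 0.94 to 1.002 without single replicates. The far-side differences kept their direction throughout. With 500 and 50 ng only (0.32 and -0.61, p = 0.0571, exact permutation) or without 1 uTOP-seq library (p = 0.0714) too few libraries remain for a smaller p, and without single replicates they ran from 0.32 to 0.35 and from -0.65 to -0.56. The windows apart from their chromosome numbered 230 of 253 and 213 of 240 in 500-kb windows, against 4299 of 4791 over all autosomes. Without single uTOP-seq replicates they numbered 119 to 121 and 112 to 115, against 2199 to 2217 over all autosomes. Over 1.2-fold chromosome 8 had 64 of 127, where 53% of all windows passed. With the CG number and the chromosome's median level in the offset it had 31, where 21.7% of all windows passed. Between 50 and 500 ng the counts were 0 and 0 in 100-kb windows, and 0 to 27 and 0 to 18 without single replicates, 0 on both chromosomes without the first 500 ng library. With the second 500 ng library left out they were 12 and 1, and with the second 50 ng library left out 10 and 17. Between 5 and 500 ng DESeq2 gave 14 and 7, and counts without single replicates ran from 0 to 69 and 0 to 62, the highest without either 5 ng library, where the remaining one is assumed to vary like the others. Replicate numbers did not pair the samples (correlations of deviations of 0.02 between 500 and 50 ng, -0.00 between 500 and 5 ng, 0.15 between 50 and 5 ng and 0.03 between 500 ng and uTOP-seq). With the number as a replicate block the counts were 29 and 13 for 50 ng (19% of all windows) and 13 and 3 for 5 ng (7.1%). Within chromosomes they were 118 and 107, against 2185 of 2405 over all autosomes. Gene ratios reversed at 5 ng for Mcpt4 (-0.17), Olfr728 (1.75) and Slitrk6 (0.069) and at 50 ng for Mcpt8 (-0.55) and Pcdh8 (-0.38). The cause was not tested. The depth of 5 ng libraries and of controls limits single windows and genes.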
